A study of Mus musculus with 7 samples.

Results

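The genes described are 54 cell-cycle genes, 22 of DNA synthesis (S phase) and 32 of G2 and mitosis, chosen by symbol out of the 27998 genes of a mouse mammary single-cell count matrix. All 54 had at least 1 transcript counted. Single cells were captured from the abdominal mammary glands, lymph nodes removed, of virgin females taken at diestrus, whose background was a mix of FVB, 129 and C57BL/6J. The Young group held 3 mice of 3 to 4 months and the Aged group 4 mice of 13 to 14 months, with no other treatment and 1 library per mouse, so the age of a mouse and the handling of its library cannot be told apart. Counts are unique molecular identifiers (UMIs), each standing for 1 captured transcript, in 13684 cells that the authors had sorted into 13 cell types and labelled with a phase, G1, S or G2M. The libraries held 1264 to 2865 cells and 6652599 to 16999625 UMIs, with a median of 4758 to 7110 UMIs per cell, and 101 barcodes occurred in more than 1 mouse (202 cells).

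A dividing cell first licenses and fires its replication origins, copies its DNA and then condenses and separates its chromosomes, and the genes for each step are transcribed in turn. Genes of the S list are switched on by E2F factors late in G1, and many G2 and mitotic genes are held off by the DREAM complex and later switched on through B-MYB and FOXM1, acting at promoter elements known as CHR and CCAAT. In the virgin mammary gland epithelial division follows the estrous cycle and is highest near diestrus. The gland holds myoepithelial cells and a pair of luminal types, hormone-sensing (HS) cells and alveolar progenitor-like (AV) cells, beside fibroblasts, vessels and immune cells.

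The S members were grouped by role. Mcm2, Mcm3, Mcm4, Mcm5, Mcm6 and Mcm7 form the helicase that unwinds DNA. Gins2, Cdc6, Cdc45 and Dtl act when origins are loaded and fired and when loading is shut off again. Pcna, the sliding clamp of the replication fork, stands with Rfc2, Fen1, Ung and Tipin. Tyms, Rrm1 and Rrm2 make DNA building blocks, and Chaf1b, Uhrf1, Hells and the histone mRNA-binding protein gene Slbp serve the copying of chromatin. Of the mitotic members, Cdk1, Ccnb1, Ccnb2, Ccna2, Cks1b and Cks2 encode the mitotic kinase with its cyclins and small binding subunits, and Ube2c, Cdc20 and Cdca3 serve timed protein destruction. Mki67, Top2a, Smc4 and Hmgb2 encode proteins of chromosomes, Birc5, Aurkb, Cdca8, Cenpa, Cenpe, Cenpf, Bub1 and Ttk those of the centromere and its checkpoint, and Aurka, Tpx2, Nusap1, Kif11, Kif20b, Kif23, Hmmr, Anln, Tacc3, Ckap2 and the tubulin gene Tubb4b those of the spindle and cytokinesis. Within the mitotic list, 25 genes were read as a core, and 7 (Cks1b, Cks2, Tacc3, Smc4, Hmgb2, Tubb4b and Ckap2) were kept apart because they also have uses outside mitosis or are widely transcribed.

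Promoters of 8 members, those with the highest counts that hold an E2F word (S list) or the CHR letters (mitotic lists), are printed to show these letters in place, which most promoters of the S and core lists lack. They are the 250 bases before the transcription start, from RefSeq on GRCm38.p6, in 5′ to 3′ direction on the gene's strand. Capitals mark every match, on either strand, of TTTGAA (the CHR letters), CCAAT, or any of 4 E2F 8-letter words, TTTCGCGC, TTTGGCGC, TTTCCCGC and TTTGCCGC. Matches may overlap, as those of Mcm6 and Ube2c do.
Mcm6 (chr1:128359706-128359955, minus strand): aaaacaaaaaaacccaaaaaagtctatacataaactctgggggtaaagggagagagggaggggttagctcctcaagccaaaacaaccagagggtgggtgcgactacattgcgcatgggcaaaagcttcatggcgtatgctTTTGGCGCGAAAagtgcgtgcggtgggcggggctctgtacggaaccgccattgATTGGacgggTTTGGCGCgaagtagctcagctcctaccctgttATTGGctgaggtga
Mcm7 (chr5:138171884-138172133, minus strand): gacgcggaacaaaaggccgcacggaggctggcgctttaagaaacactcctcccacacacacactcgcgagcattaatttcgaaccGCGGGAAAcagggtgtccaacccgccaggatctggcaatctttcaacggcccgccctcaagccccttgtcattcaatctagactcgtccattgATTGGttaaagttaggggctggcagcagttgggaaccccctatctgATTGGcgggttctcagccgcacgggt
Dtl (chr1:191575545-191575794, minus strand): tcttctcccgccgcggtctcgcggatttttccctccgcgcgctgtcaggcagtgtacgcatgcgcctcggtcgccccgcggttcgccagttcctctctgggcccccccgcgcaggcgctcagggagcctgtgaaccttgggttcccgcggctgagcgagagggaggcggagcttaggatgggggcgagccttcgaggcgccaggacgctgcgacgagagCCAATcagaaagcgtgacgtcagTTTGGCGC
Top2a (chr11:99024190-99024439, minus strand): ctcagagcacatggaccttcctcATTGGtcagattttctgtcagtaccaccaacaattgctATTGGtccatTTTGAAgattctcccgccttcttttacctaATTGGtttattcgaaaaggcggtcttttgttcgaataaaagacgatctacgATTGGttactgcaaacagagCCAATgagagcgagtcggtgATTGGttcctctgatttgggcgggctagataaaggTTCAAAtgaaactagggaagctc
Ube2c (chr2:164769679-164769928, plus strand): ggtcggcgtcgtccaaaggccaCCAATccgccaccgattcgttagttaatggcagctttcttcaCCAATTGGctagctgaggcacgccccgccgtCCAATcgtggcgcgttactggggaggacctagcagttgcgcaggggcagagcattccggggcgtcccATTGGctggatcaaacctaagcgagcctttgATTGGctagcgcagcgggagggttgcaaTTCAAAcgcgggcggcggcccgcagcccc
Mki67 (chr7:135716380-135716629, minus strand): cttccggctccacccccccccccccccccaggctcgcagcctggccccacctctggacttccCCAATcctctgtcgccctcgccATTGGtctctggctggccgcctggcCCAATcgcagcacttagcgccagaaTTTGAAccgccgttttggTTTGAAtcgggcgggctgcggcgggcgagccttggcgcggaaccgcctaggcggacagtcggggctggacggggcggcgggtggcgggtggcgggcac
Tubb4b (chr2:25224703-25224952, minus strand): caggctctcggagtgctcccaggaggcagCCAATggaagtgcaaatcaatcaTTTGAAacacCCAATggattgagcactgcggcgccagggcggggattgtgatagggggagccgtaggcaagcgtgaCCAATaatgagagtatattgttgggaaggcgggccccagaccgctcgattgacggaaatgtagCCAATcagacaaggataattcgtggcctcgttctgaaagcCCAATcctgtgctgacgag
Hmgb2 (chr8:57511593-57511842, plus strand): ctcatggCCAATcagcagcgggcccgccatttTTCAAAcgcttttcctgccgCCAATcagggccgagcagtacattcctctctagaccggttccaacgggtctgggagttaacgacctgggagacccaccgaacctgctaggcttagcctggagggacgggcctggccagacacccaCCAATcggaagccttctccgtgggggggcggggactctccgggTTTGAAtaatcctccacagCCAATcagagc

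Of the 54 members, 46 were in the promoter table, 3 of them with more than 1 promoter. Aurkb, Ccna2, Gins2, Mcm4, Rfc2, Smc4, Tipin and Tpx2 had no entry. An E2F word occurred in 7 of 21 S promoters (33.3%), in 1 of 22 core promoters (4.55%) and in none of the 6 outside the core, against 1.86% of 32851 promoters of the same length. The CHR letters stood in 3 of the S promoters (14.3%), 7 of the core (31.8%) and 4 outside the core (66.7%), against 16% of all, and CCAAT in 66.7%, 81.8% and 83.3%, against 33.8%. Every core promoter with the CHR letters also held CCAAT (7), as did the 4 outside the core, while 5.55% of all promoters held both. These are matches of letters in a window and no evidence of binding.

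The S genes were read in many cells and the mitotic core in few. The 22 S members gave 22163 UMIs, led by Slbp with 5326 UMIs in 4093 cells (29.9%) and Pcna with 3893 UMIs in 3090 cells (22.6%). The 25 core genes together gave 4218 UMIs, fewer than Slbp alone, while the 7 genes outside the core gave 32161, of which Tubb4b gave 15348 (in 56.5% of cells) and Hmgb2 8399 (36.1%). Counts come from tags at the 3′ end of transcripts, and totals of different genes are not on a common scale of level. Transcripts set free from broken cells can reach any droplet. Epithelial Krt18 had a UMI in 56.6% of 129 Mb macrophages under the cut defined next, and the source of these UMIs was not tested. For caution, 1 UMI of a core gene in a cell was not read as a cycling cell.

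Cells with UMIs of 3 or more distinct core genes were therefore counted as mitotic-gene cells. There were 157 of them, 1.15% of 13684 (95% Wilson interval 0.982 to 1.34, counting error only). The count was 281 at a cut of 2 genes and 135 at 4, and 101 after every cell was thinned to 2000 UMIs. Their median depth was 5895 UMIs and 1876 genes, against 5607 UMIs and 1677 genes in G1-labelled cells under the cut. None was called a doublet. The authors' quality filter left no cell above 2499 genes. At least 2250 genes were found in 27 of the 157 (17.2%) and in 11.1% of other cells. How many dividing cells the filter removed was not tested.

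By construction the 157 cells held much of the core's RNA, and the genes differed in how much. The share of a core gene's UMIs found in these cells had a median of 64.7%, from 17.8% for Cenpf to 95.7% for Hmmr. Cyclin A2 (Ccna2) had 90.9% of its UMIs there, Cdca3 83.8%, Ccnb2 81.1%, Ube2c 73.5%, Birc5 69.9%, Cdk1 69.4%, Ccnb1 66.2% and Top2a 62.7%. Mki67, the proliferation marker Ki-67, had only 39.1% there, and 144 of its 241 positive cells (59.8%) held no other core gene. For Cenpf, a kinetochore gene, that share was 73.3%, against 11% for Ccna2. Of the S members, which the cut did not use, the median share was 8.39%, from 2.82% for Slbp to 52.6% for Rrm2, with Uhrf1 at 34.7%, Hells at 21.8%, Mcm5 at 15.5%, Tyms at 11.3%, Mcm6 at 6.05% and Pcna at 4.06%. Rrm2, the inducible subunit of ribonucleotide reductase, thus lay largely with the mitotic core, and its partner Rrm1 (7.37%) did not. Outside the core the median was 11.2%, with Hmgb2 at 15.9%, Smc4 at 11.2%, Cks2 at 11%, Cks1b at 6.46% and Tubb4b at 1.98%.

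**Figure D1:**
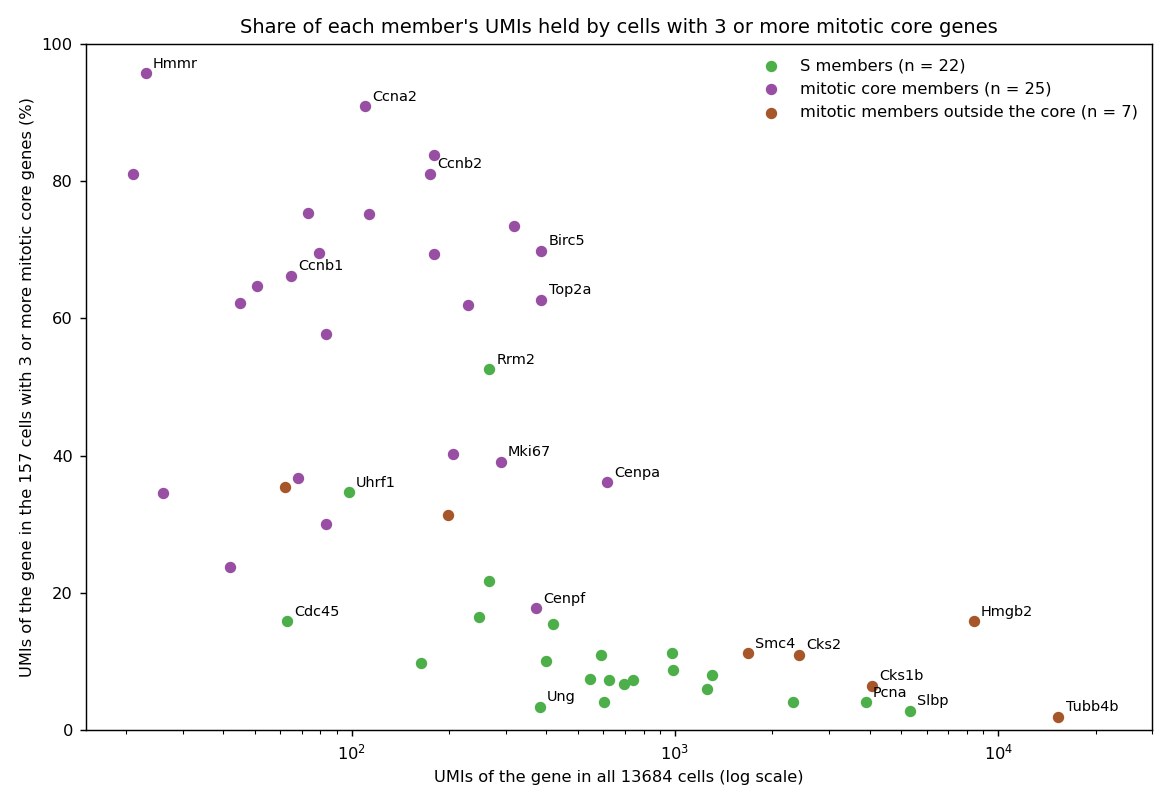
Each point is 1 of the 54 genes, with its UMIs in all cells on a log scale (x axis) and the percent of those UMIs found in the 157 cells with 3 or more core genes (y axis). The cut used the purple core genes. Hmmr (95.7%) and Ccna2 (90.9%) are at the top, and among the green S genes Rrm2 (52.6%) stands above the list's median of 8.39%, while Slbp (2.82%) and Tubb4b (1.98%) lie near 0.

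The deposited phase labels were set against these counts. Of all cells, 7031 (51.4%) were labelled G1, 4832 (35.3%) S and 1821 (13.3%) G2M. The labels came from scores over default phase lists of a software package, and 50 of the 54 members are on the original version of those lists, so members on them are described here and not tested. Of the 157 mitotic-gene cells, 116 (73.9%) were labelled G2M, 39 (24.8%) S and 2 (1.27%) G1. The reverse did not hold. Of the G2M-labelled cells, 1312 (72%) held no core gene at all, 18.9% held 1 and 6.37% held 3 or more. Among S-labelled cells 88.5% held no core gene and 0.807% held 3 or more, and among G1-labelled cells 91.2% held none and 0.0284% held 3 or more. Members differed in how far their UMIs followed the labels. Of Ccnb2 UMIs 83.4% lay in G2M-labelled cells and of Ccna2, which is on neither version of the lists, 71.8%, against 23.2% of Tubb4b and 26.5% of Cks1b. Of Pcna UMIs 63.4% lay in S-labelled cells, and of Mcm3, also on neither version, 43.5%.

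Apart from the genes that made the labels, 24 proliferation genes on neither list were read in 4 classes of cells. These were the 157 mitotic-gene cells and the remaining G2M-, S- and G1-labelled cells. Every cell was thinned to 2000 UMIs, and no cell was too shallow. Stathmin (Stmn1), which destabilizes microtubules, had a UMI in 82.2% of the mitotic-gene cells, 4.34% of other G2M-labelled, 5.78% of other S-labelled and 2.96% of other G1-labelled cells (93, 10.3, 13.4 and 7.88% without thinning). The PCNA-associated factor gene 2810417H13Rik stood at 61.1, 0.352, 0.438 and 0.242%, and thymidine kinase 1 (Tk1) at 22.9, 0.117, 0.376 and 0.142%. The median over the 24 genes was 22.3% in mitotic-gene cells and 1.2, 0.835 and 0.903% in the other classes. Of the 24 genes, 18 were more than 5 times their G1-labelled share in mitotic-gene cells and 0 in either of the other classes. The label classes had lost their cells with 3 or more core genes. This contrast, and that per mouse below, was therefore partly set by the cut and does not describe the labels as deposited. Labels with all their cells were compared in the AV sums below.

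The same was read per mouse. Left out were the 6 most widely found genes (H2afz, Tuba1b, Tubb5, Ran, Dek and Hmgn2). The summed level of the other 18 in mitotic-gene cells lay between 1698 and 4029 CPM (UMIs per 1000000 UMIs of the cells summed) in the 6 mice that had such cells. In other G2M-labelled cells it was 92 to 196, in other S-labelled cells 90 to 268 and in other G1-labelled cells 79.7 to 116 CPM over 7 mice. The first range overlapped none of the others, and the 196 and the 268 were both those of Young A. The S list behaved otherwise. Its summed level was 1191 to 2669 CPM in mitotic-gene cells, 349 to 617 in other S-labelled cells, 158 to 253 in other G2M-labelled and 113 to 173 in other G1-labelled cells. In mitotic-gene cells 20 of the 22 S members exceeded 5 times their G1-labelled share, among them Rrm2 (20.4% of cells against 0.142%), so these cells also carried S genes. The exceptions were the widely found Pcna (22.3% against 4.47%) and Slbp (28% against 6.23%). In other S-labelled cells 5 of 22 did, a count that the labels used. The genes outside the core were spread over classes. Hmgb2 was found in 83.4% of mitotic-gene cells and 26.6% of other G2M-labelled cells, and Tubb4b in 35% and 46.1%.

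**Figure D2:**
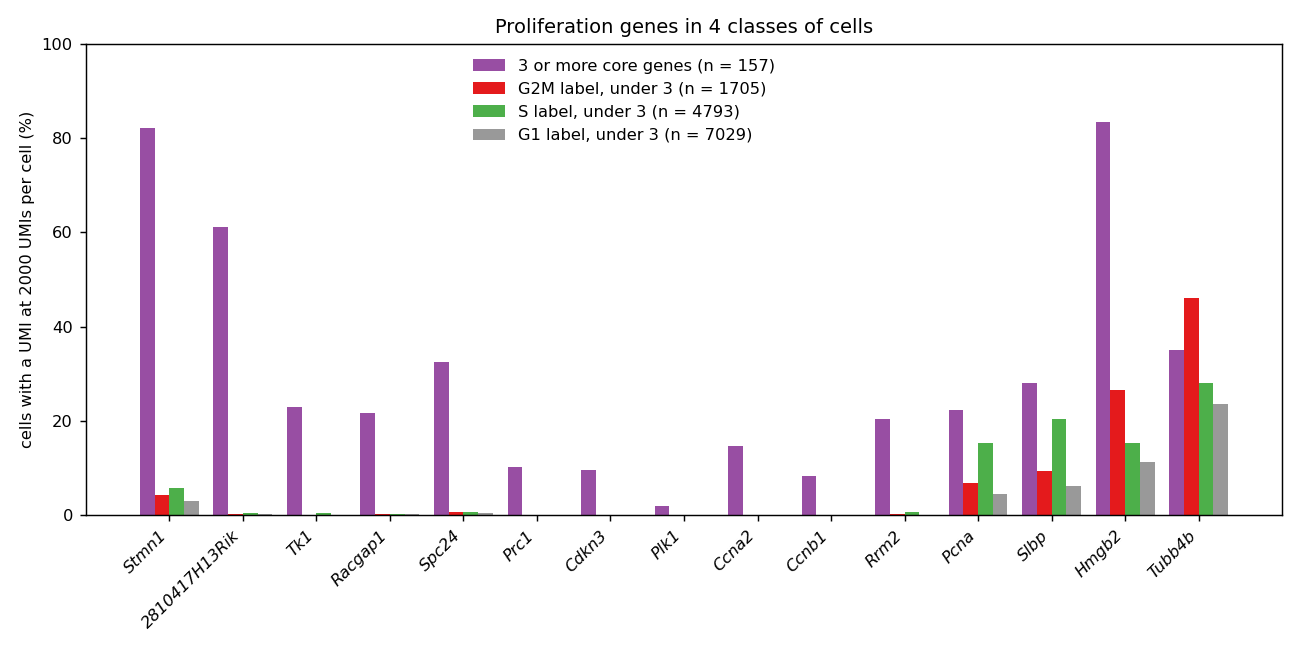
Bars give the percent of cells in which each gene (x axis) was counted after thinning each cell to 2000 UMIs, for the 157 cells with 3 or more core genes and for the other cells by deposited label. Stmn1 (82.2%) and 2810417H13Rik (61.1%) are high in the first class alone, Pcna and Slbp are also raised in S-labelled cells, and Tubb4b (46.1%) is highest in G2M-labelled cells.

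A direct test was possible for the 3 members on neither version of the lists, in sums per mouse and label of AV cells (edgeR quasi-likelihood test, mouse as a block). Mcm3, a helicase subunit, stood in G1-, S- and G2M-labelled AV cells at 9.18, 28.4 and 24.5 CPM in Young A and at 1.79, 8.42 and 3.77 in Aged B. It was higher in S- than in G1-labelled cells in 6 of 7 mice and in Aged C lower (1.61 against 2.88). The log2 difference of S over G1 was 1.15 ± 0.29 (SE; adjusted p = 0.012), in a fit without a minimum count where 0.492% of 16652 genes passed. G2M over G1, where 0.396% passed, was 0.24 ± 0.45 (adjusted p = 0.97). In HS cells, with 35 Mcm3 UMIs in all, the difference of S over G1 was -0.64 ± 0.76 (adjusted p = 0.97). Ccnb1 and Ccna2, the mitotic and the S-to-G2 cyclin, had 12 UMIs each in all 4820 AV cells. In G2M-labelled cells Ccnb1 was at 24.5 CPM in Young A, 0.942 in Aged B and 0 in the other mice, and G2M over G1 was 1.93 ± 1.32 (adjusted p = 0.87), with Ccna2 at 2.44 ± 1.45 (adjusted p = 0.79). A difference in these 2 cyclins was not detectable at this depth. Members on the lists passed by construction, all 5 tested mitotic genes in G2M over G1 (Cks2 1.65, Smc4 1.48, Hmgb2 1.17, Tubb4b 1.10, Cks1b 1.07) where 0.235% of 6821 genes did, and 9 of 10 tested S genes in S over G1, where 0.396% did, and nothing is read from these counts. Of 11 tested proliferation genes off the lists, Stmn1 alone passed in G2M over G1 (1.07, adjusted p = 0.0036), with the rise in Young A (73.4 to 368 CPM), Young C (21.6 to 37.9) and Aged B (15.5 to 51.8), little change in Aged A and Aged D and lower values in Young B (26.4 to 23.5) and Aged C (8.92 to 5.37), and Lig1 (0.88) and Stmn1 (0.79) in S over G1.

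Mitotic-gene cells were most frequent among immune cells, pooled over mice. They made up 28.3% of the cells labelled T and B (17 of 60), 25% of natural killer (NK) cells (10 of 40), 16.4% of dendritic cells (37 of 226), 11.6% of Mb macrophages (17 of 146) and 4.92% of Ma macrophages (6 of 122). Pooled over mice, the other types ranged from 1.1% of vascular endothelial cells (20 of 1819) through 0.778% of myoepithelial (13 of 1670), 0.733% of HS-AV (2 of 273), 0.573% of pericytes (2 of 349) and 0.539% of AV cells (26 of 4820) to 0.201% of fibroblasts (4 of 1993) and 0.14% of HS cells (3 of 2138). Lymphatic endothelium had 0 of 28, which allows a share of up to 10.7%. The mice differ in their share of each type and in their level, so the pooled order is not that of each mouse. Within Young A the order outside the immune cells was AV (6.25%), myoepithelial (5.88%), vascular (2.93%), HS (0.237%) and fibroblasts (0.172%). In Young C Ma macrophages were at 1.64% (1 of 61), below vascular cells at 2.07%, and Mb macrophages had 0 of 18. In Young B Mb macrophages had 0 of 16, against 0.794% of vascular cells. Young A gave 4 of the 6 Ma cells. The NK count was 1 of 9, 3 of 3 and 6 of 16 in Young A, B and C and 0 of 5 in each of Aged A and Aged B. The 95% Wilson intervals of neighbours in the pooled order overlapped, except those of Ma macrophages (2.27 to 10.3%) and vascular cells (0.713 to 1.69%). They hold counting error only and not the spread between mice. Overlapping pairs included T and B (18.5 to 40.8%), NK (14.2 to 40.2%) and dendritic cells (12.1 to 21.8%), and HS (0.0477 to 0.412%) and AV cells (0.368 to 0.789%). Immune cells were 4.34% of all cells and gave 87 of the 157 (55.4%), epithelial cells 44 and stromal and vascular cells 26.

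The immune labels of these cells were checked on markers. All 37 dendritic mitotic-gene cells held the antigen-presentation gene Cd74, all 17 of the Mb macrophages held lysozyme (Lyz2), and 13 of the 17 T and B cells held the T-cell receptor gene Cd3e (76.5%, against 67.4% of the other 43) while none held Lyz2. Ptprc, a leukocyte gene, was found in 23 dendritic (62.2%), 10 Mb (58.8%), 9 of 10 NK and 2 of 6 Ma mitotic-gene cells. Epcam was found in 8 of the Mb ones (47.1%, against 31.8% of other Mb cells). Over all 87 immune mitotic-gene cells Cd74 was at 73.6%, against 88% of the others, Lyz2 at 64.4%, against 79.9%, and Epcam at 23%, against 25.2%. The epithelial labels were checked in the same way. Keratin 14 (Krt14) was found in all 13 myoepithelial mitotic-gene cells and Krt18 in all 26 of AV. Epcam was found in 38 of 44 epithelial mitotic-gene cells (86.4%, against 98.1% of the others), and Cd74 in 43.2%, against 13.9%, whose part in the result was not tested. The leukocyte gene Ptprc was found in 1 of the 44. Among immune cells of Young A, B and C 17.4, 14.1 and 13.9% were mitotic-gene cells (of 218, 71 and 209 cells), and of Aged A, B, C and D 10, 14.3, 10 and 0% (4 of 40, 5 of 35, 1 of 10 and 0 of 11). The groups overlapped through Aged B, and the Aged shares rest on few cells. Dendritic cells stood at 17.3, 16.7 and 17% in the Young mice and at 7.14 and 20% in Aged A and Aged B. All 17 Mb mitotic-gene cells came from Young A, where they were 18.9% of 90, and the Mb share therefore rests on 1 library.

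**Figure D3:**
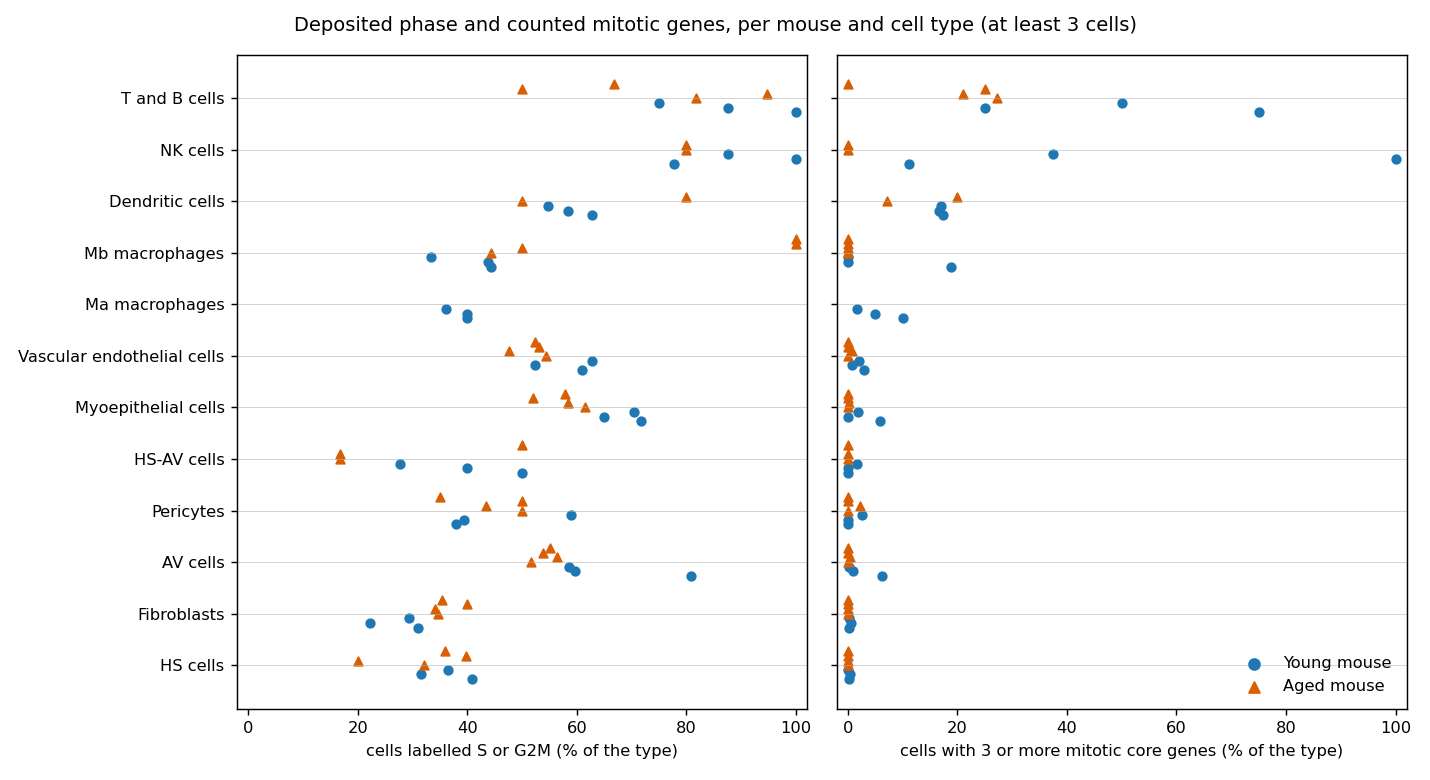
Each symbol is 1 mouse with at least 3 cells of the type (blue circles Young, orange triangles Aged). The left panel gives the percent of the type's cells labelled S or G2M and the right panel the percent with 3 or more core genes. On the right most symbols outside the immune types lie near 0, and the highest are those of Young A in AV (6.25%) and myoepithelial cells (5.88%). Next come vascular cells of Young A (2.93%) and pericytes of Young C (2.56%) and Aged B (2.17%), where the pericyte values are 1 cell each. Lymphatic endothelial cells are not shown.

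Over whole libraries the mitotic-gene share was 3.61% in Young A (81 of 2243 cells), 1.27% in Young B (16 of 1264) and 1.40% in Young C (40 of 2865), and 0.243% in Aged A (4 of 1648), 0.51% in Aged B (14 of 2746), 0.146% in Aged C (2 of 1370) and 0 in Aged D (of 1548, which allows up to 0.194%). The groups did not overlap, with means of 2.09 ± 1.32% (SD, n = 3) and 0.225 ± 0.215% (n = 4). Without Young A the Young mean was 1.33% and the Aged minus Young difference -1.11 in place of -1.87 percentage points. Since the genes that define these cells are the members, no test is given. Immune cells made up 9.72, 5.62 and 7.29% of the Young libraries and 2.43, 1.27, 0.73 and 0.711% of the Aged ones, and their part in this difference was not tested. Within types the contrast was carried by few cells. Among myoepithelial cells 11 of 187 were mitotic-gene cells in Young A, 0 of 40 in Young B (up to 7.5% allowed), 1 of 54 in Young C and 1 of 662 in Aged B, with 0 in Aged A, C and D. Among AV cells they were 6.25% in Young A (18 of 288), 0.962% in Young B and 0.249% in Young C (1 of 402). In the Aged mice they were 0 of 860 in Aged A, 0.346% in Aged B (5 of 1446), 0.11% in Aged C (1 of 909) and 0 of 811 in Aged D, on average 0.114 ± 0.163% (n = 4). The AV groups overlapped, with Aged B above Young C. HS cells had 1 in each Young mouse and 0 in each Aged mouse. Young A held 30 of the 44 epithelial cells of this kind. Without it the Aged minus Young difference was -0.888 percentage points in place of -2.54 in myoepithelial cells and -0.491 in place of -2.37 in AV cells.

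The share with a deposited S or G2M label was lower in every Aged mouse than in any Young mouse in myoepithelial and AV cells. It did not pass its test after correction. In myoepithelial cells it was 71.7, 65 and 70.4% in Young A, B and C and 61.5, 58.3, 52 and 57.9% in Aged A to D. The groups did not overlap (69 ± 3.53 against 57.4 ± 3.94%), nor did they with phases called again (71.1, 70 and 74.1% against 63, 58.2, 56 and 61.2%). After thinning they did overlap (70.6, 57.5 and 74.1% against 58.8, 63.4, 58.4 and 62.1%), with Young B below every Aged mouse. In AV cells it was 80.9, 59.6 and 58.5% against 51.6, 56.3, 53.9 and 55.1%. With the deposited labels these groups did not overlap either, and 1 mouse, Young A, stood far above the others. Without it the difference was -4.8 in place of -12.1 percentage points, and with phases called again the AV groups overlapped (82.3, 55.8 and 60% against 55.3, 61.1, 58.2 and 59.6%), as they did after thinning. In HS cells it was 40.8, 31.6 and 36.5% against 32.1, 20, 39.8 and 35.9%, with overlap. The exact two-sided permutation test over 35 divisions of the mice gave p = 0.029 in myoepithelial and in AV cells, the smallest it can give, and 0.51 in HS cells. After Benjamini-Hochberg adjustment over 18 shares these were 0.064, 0.064 and 0.66. A share alone at the smallest p could not pass this adjustment, so not passing is not read as no difference. Read singly, the labels gave in myoepithelial cells an S share of 51.1 ± 3.59 against 41.9 ± 4.01% (adjusted exact permutation p = 0.064), whose groups overlapped with phases called again (49.7, 55 and 42.6% against 42, 40.9, 35.2 and 45.3%) and after thinning. In AV cells the G2M share was at 15.3, 22.1 and 26.6% against 10.7, 11.2, 10.5 and 6.54% (adjusted exact permutation p = 0.064), while the AV S share was 45 ± 18.1 against 44.5 ± 3.21%. The AV G2M groups did not overlap with phases called again (18.1, 20.2 and 28.9% against 12.4, 14.9, 12.2 and 9.49%). After thinning they did not overlap either, but lay closer (19.4, 24 and 25.6% against 17.7, 16.9, 15.6 and 13.7%). The order of mice by AV G2M label was not that by counted genes. Young A had the lowest G2M share of the Young mice and the highest share of mitotic-gene cells (6.25%).

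Levels of single members were then compared between ages in the 7 types with enough cells, by edgeR on UMIs summed per mouse, called at an adjusted p under 0.05 and at least 1.5-fold. In bulk sums of this kind, fewer cells with a transcript and less transcript per cell cannot be told apart. Myoepithelial cells had the most lower members. Of 13 tested, 6 were lower in Aged mice and none higher, beside 27.6% of all 6740 genes called, 14.8% lower and 12.8% higher. Hmgb2, a chromosomal high-mobility-group protein, stood at 191, 98.3 and 156 CPM in Young A, B and C and at 68, 55.1, 70.8 and 72.5 in Aged A to D. The lowest Young value lay above the highest Aged value, and the log2 difference was -1.13 ± 0.23 (adjusted p = 0.0019). Tipin, which steadies stalled forks, gave 30.2, 19.7 and 19.5 against 11, 9.64, 6.15 and 12 CPM (-1.22 ± 0.35, adjusted p = 0.016), and Mcm6 gave 26.4, 14.7 and 16.2 against 8.27, 9.64, 10.8 and 9.7 (-1.07 ± 0.35, adjusted p = 0.031). Neither pair of groups overlapped. Cks2 was at 63.3, 34.4 and 42.2 against 23.9, 21.7, 30.8 and 26.2 CPM (-0.93 ± 0.27, adjusted p = 0.018) and the condensin gene Smc4 at 43.4, 29.5 and 35.7 against 29.4, 20.3, 12.3 and 11.4 (-0.96 ± 0.33, adjusted p = 0.038), again without overlap, though 29.5 and 29.4 nearly touch. Rfc2, a clamp loader subunit, was at 48.2, 19.7 and 29.2 against 20.2, 16.5, 15.4 and 12 (-1.13 ± 0.32, adjusted p = 0.014), with Young B inside the Aged range.

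Of the tested members, 8 of 8 S genes and 4 of 5 mitotic genes had a negative difference in myoepithelial cells. The median log2 difference was -0.71 over the 8 tested S members and -0.93 over the 5 mitotic ones, against 0.01 over all genes. With adjusted p in parentheses from here on, Pcna, at -0.16 (0.66), and Tubb4b, at 0.28 (0.31), did not pass, nor did Cks1b, at -0.88 (0.052). Core genes fell below the minimum count here. Top2a was at 34.9 CPM in Young A and at 0 in Young B, Young C, Aged A and Aged C, and Ube2c at 34.9 in Young A and 0 in the other 6 mice. The calls lean on few cells and on 1 library. Without the 157 mitotic-gene cells 2 of 12 tested members were called (Hmgb2 -0.75 and Rfc2 -1.11), and without Young A 1 (Hmgb2, -0.87, adjusted p = 0.038). Immune markers (4 genes, summed) stood at 167 to 253 CPM in the Young and 35.1 to 73 in the Aged myoepithelial sums, and fibroblast markers (4) at 29.5 to 208 and 3.08 to 25.7, with none of the 8 at 0 in all mice, and their part in the result was not tested. Own markers (Krt14, Krt17 and Krt5) were at 9000 to 11011 and 10382 to 11744.

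AV cells had 32 members tested and 1 called. Cdc45, which loads onto the helicase at firing origins, gave 4.62, 1.80 and 1.65 CPM in the Young mice and 0, 0.299, 0.136 and 0.483 in the Aged, without overlap (-3.17 ± 0.78, adjusted p = 0.039), from 20 UMIs in all with 1 in Young B, beside 6.16% of 11012 genes called, 3.26% lower. The call was lost without called doublets. The next lowest adjusted p were those of Tipin (-1.28, 0.053) and Top2a (-2.08, 0.06), and Top2a was at 19.6, 8.99 and 3.31 against 1.81, 1.3, 1.77 and 3.38 CPM, so that Young C lay within the Aged range. Of the 32, 29 had a negative difference, 16 of 19 S members (median -0.70) and all 13 mitotic members (median -0.50), with a median of 0.02 over all genes. Immune markers were at 102 to 160 CPM in Young and 12.6 to 64.3 in Aged AV sums, and fibroblast markers at 30.6 to 178 and 1.23 to 5.59, and their part in the result was not tested. In HS cells 0 of 19 tested members passed by edgeR, where 6.26% of 8457 genes did, with 2 at an unadjusted p under 0.05 and 1 called by DESeq2. Cks1b came nearest, at 66.7, 45.1 and 63.2 against 15.4, 33.6, 27.2 and 31.9 CPM, without overlap (-0.97 ± 0.27, adjusted p = 0.056, and 0.038 by DESeq2), followed by Tubb4b (0.45, 0.16) and Hmgb2 (0.45, 0.22).

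Vascular endothelial cells had 19 members tested, with 4 lower and 1 higher in Aged mice, beside 26.7% of 7864 genes called, 12% lower and 14.7% higher. Rrm2 was at 20.9, 11.4 and 8.25 CPM in the Young and 1.06, 2.1, 0.891 and 0.635 in the Aged mice, the largest difference among them (-3.17 ± 0.50, adjusted p = 0.00037). Of its 76 vascular UMIs, 46 lay in mitotic-gene cells. Slbp, needed for histone mRNA, went the same way at a high level, 100, 84.4 and 78.3 against 47.7, 45.4, 41 and 36.8 (-0.70 ± 0.16, adjusted p = 0.0058), and Cks1b was at 18.9, 11.4 and 17.9 against 5.3, 3.49, 6.24 and 3.81 (-1.42 ± 0.34, adjusted p = 0.0069). Mcm7 was at 14.6, 7.08 and 8.25 against 4.24, 4.89, 0.891 and 2.54 (-1.34 ± 0.45, adjusted p = 0.041). None of these groups overlapped. Thymidylate synthase (Tyms) was higher in Aged mice, at 35.5, 14.7 and 27.5 against 38.1, 41.9, 33 and 36.8 (0.90 ± 0.26, adjusted p = 0.019), with Young A inside the Aged range. Hmgb2 passed the p threshold (-0.45, 0.038) below 1.5-fold. Without the mitotic-gene cells Tyms (1.10) and Slbp (-0.63) stayed called, 2 of 16 tested, and without Young A Mcm7 was lost. Those cells were 2.93, 0.794 and 2.07% of the vascular cells in the Young mice and 0.702% in Aged B, with 0 in the other Aged mice. Immune markers in these sums were at 198 to 600 CPM in the Young and 619 to 8701 in the Aged mice, and pericyte markers (3 genes) at 98.6 to 346 and 5.59 to 66.8, and their part in the result was not tested. Fibroblasts had 0 of 7 tested members called (3.17% of genes; 0 at an unadjusted p under 0.05), with Slbp at 0.42 (adjusted p = 0.34), Cks1b at -0.39 (0.49) and Pcna at 0.31 (0.62). Pericytes had 0 of 4 (11.8% of genes; 0 at an unadjusted p under 0.05), with Hmgb2 at 0.62 (0.29), Slbp at 0.32 (0.58) and Pcna at -0.19 (0.74), and Mb macrophages 0 of 1 (1.16% of genes), Hmgb2 at -0.79 (0.58). DESeq2 called none in these 3 types.

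**Figure D4:**
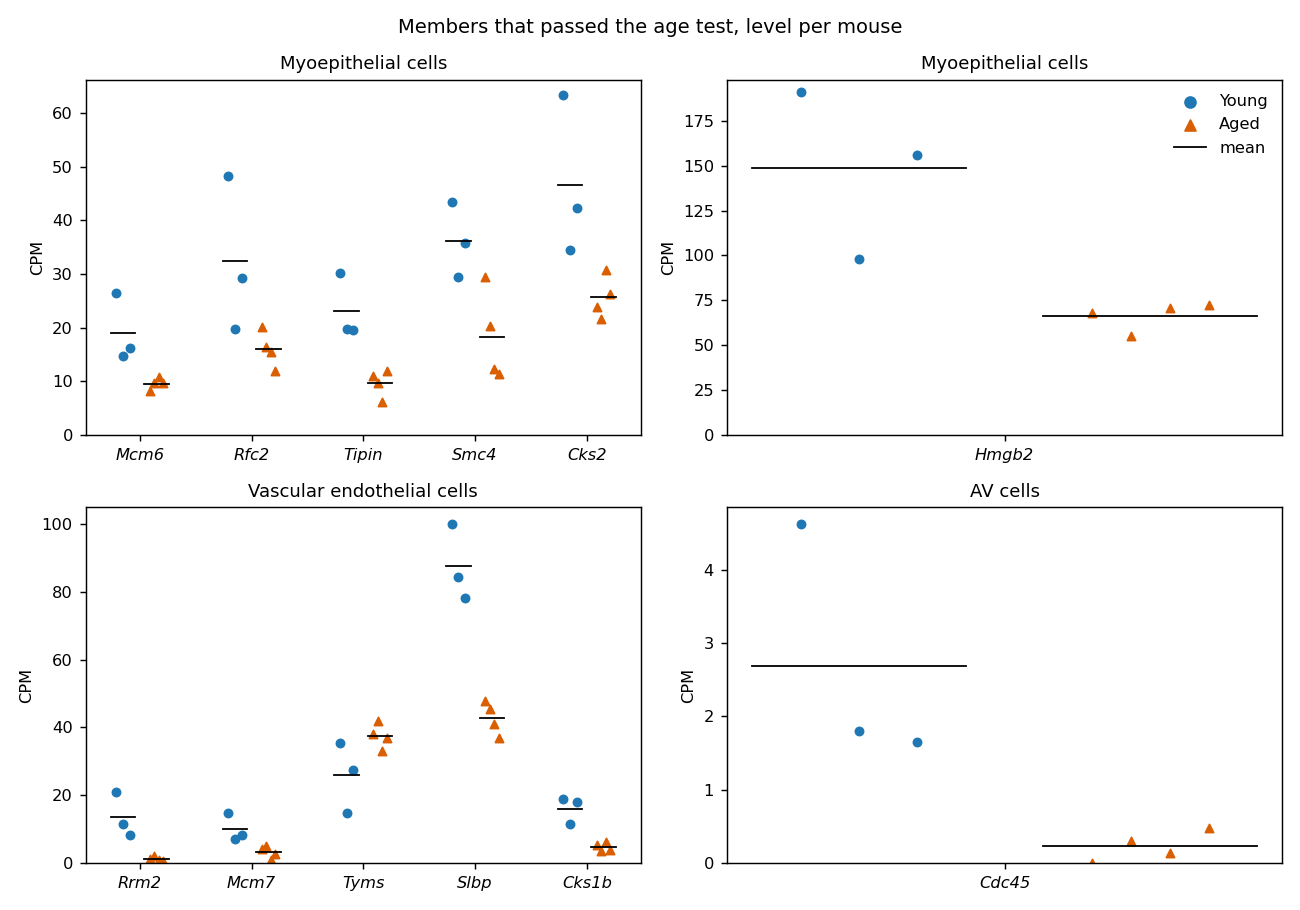
CPM in each mouse (blue circles Young, n = 3; orange triangles Aged, n = 4; lines are group means) for the 12 pairs of member and type that passed the age test. The y axes differ between panels. Hmgb2 in myoepithelial cells runs from 98.3 to 191 in Young and 55.1 to 72.5 in Aged mice, and Tyms in vascular cells is the 1 pair that is higher in Aged mice.

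Whether the age difference of a member called in 1 type differed from that in another type was tested by an exact permutation over the mice in 36 pairings, and none passed (smallest adjusted p = 0.11, with 9 at an unadjusted p under 0.05). These 9 all stood at 0.029, the smallest p that 35 divisions can give, and a pairing alone at that value could not pass the adjustment. A call in myoepithelial cells beside none in HS cells is thus neither shown to be a difference between them nor shown to be none. Among genes tied to the cycle but not members, the proliferation genes off the phase lists had 6 lower and 1 higher of 11 tested in myoepithelial cells, led by Stmn1 (-2.85, from 158, 73.7 and 114 CPM to 25.7, 13.1, 16.9 and 11.4), Lig1 (-2.14) and Dut (-1.53). In AV cells 2 of 16 were lower, 2810417H13Rik (-3.30) and Cenpw (-1.92), in HS cells 1 of 11, Stmn1 (-2.42), and in vascular cells Stmn1 was lower (-1.32) and Tubb5 higher (0.76) of 11. The rest of the phase lists moved less evenly in myoepithelial cells, with 0 of 6 further S genes called and, of 8 further G2M genes, Hjurp (-1.61) and Hn1 (-0.76) lower and Lbr (1.02) and Rangap1 (0.92) higher. Hn1 was also the 1 called G2M gene in HS (-0.83, of 10) and AV cells (-0.76, of 14). In vascular cells Hjurp (-1.89, of 9) and Rpa2 (-1.10, of 10 further S genes) were lower. Of the cell-cycle control genes, cyclin D2 (Ccnd2) was lower in myoepithelial (-3.31) and AV cells (-2.49, 1 of 19), and Cdk4 (-1.30) and Ccnd3 (-0.88) in myoepithelial cells, where 3 were lower and 2 higher of 11. In vascular cells 7 were lower and 1 higher of 15, led by the CDK inhibitor Cdkn1c (-1.94), Rb1 (-1.38) and E2f7 (-1.35). No further S gene was called in HS, AV or fibroblast sums, no control gene in HS cells or fibroblasts, and no gene of any of these lists in fibroblasts or Mb macrophages. In pericytes 1 of 7 control genes was called.

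Epithelial types were compared within the same 7 mice (mouse as a block). The types had been named by the authors from these same counts. The HS cells were the low group. Of 19 tested members 9 were higher in AV than in HS cells and 1 lower, beside 42.5% of 8599 genes called, 22.6% higher and 19.9% lower. Pcna stood at 31.7, 19.1, 22.2, 30.9, 15.6, 21.7 and 16.6 CPM in HS cells of Young A, B, C and Aged A, B, C, D and at 85.4, 32.4, 33.9, 40.3, 35.9, 33 and 39.8 in AV cells, higher in 7 of 7 mice (log2 difference 1.10 ± 0.15, adjusted p = 2.7e-05). Dtl, whose product ends origin licensing, was at 6.92, 1.59, 3.43, 1.63, 2.43, 4.08 and 8.28 in HS and 30.6, 16.2, 12, 4.77, 14.6, 12 and 17.2 in AV cells (2.14 ± 0.24, adjusted p = 3.9e-06), the largest of these differences and again in all 7 mice. The other S members called were Rrm1 (1.27, adjusted p = 0.0034), Mcm7 (1.11, 0.0053), Slbp (1.01, 1e-05) and Tyms (0.93, 0.024). The mitotic ones, all outside the core, were Smc4 (1.31, 2e-05), Cks2 (1.11, 7.1e-05) and Cks1b (0.83, 0.00082). Hmgb2 was at 0.17 (0.49) and Tubb4b at -0.05. Leaving out the mitotic-gene cells ended the call of Tyms alone, so the other 9 differences were also found in cells with under 3 core genes.

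HS cells also lay below myoepithelial cells in 5 of 11 tested members, Pcna (-1.68, adjusted p = 5.6e-07), Smc4 (-1.53, 0.00011), Mcm7 (-1.31, 4e-04), Slbp (-1.13, 5.4e-05) and Cks2 (-1.02, 0.0022), and above them in none, beside 58.6% of 6835 genes called, 28.8% lower. Pcna in myoepithelial cells was at 84, 59, 64.9, 81.8, 51.7, 50.8 and 60.5 CPM, above the HS value in every mouse. AV and myoepithelial cells differed in 3 of 17, Tyms (1.12, 0.032), Mcm6 (0.75, 0.0077) and Rfc2 (0.61, 0.023), all S genes and higher in AV cells, beside 48.2% of 7820 genes, 25.1% higher. None of the 3 passed without the mouse as a block. Mcm6 was at 52.5, 27, 12.8, 17.3, 18.3, 13.5 and 13.7 in AV and 26.4, 14.7, 16.2, 8.27, 9.64, 10.8 and 9.7 in myoepithelial cells, higher in AV cells in all mice but Young C. The phase labels, which are scored from most of these genes and so add no separate support, were also lowest in HS cells. AV cells were labelled S or G2M in 59.4 ± 9.85% (SD, n = 7), myoepithelial cells in 62.4 ± 7.09% and HS cells in 33.8 ± 7%, with AV above HS in 7 of 7 mice and HS below myoepithelial in 7 of 7 (exact sign-flip permutation p = 0.016 each, the smallest of 128 flips, adjusted 0.064), while AV and myoepithelial cells differed by -2.97 percentage points (adjusted exact permutation p = 0.46). The gap between AV and HS cells lay mostly in the S label, at 44.7 ± 10.7 and 20.2 ± 6.16% (adjusted exact permutation p = 0.064, not passed). Here too a share alone at the smallest p could not pass the adjustment. The G2M label was at 14.7 ± 7.19 and 13.6 ± 4.6% (adjusted exact permutation p = 0.66). Mcm5, another helicase subunit, was at 0 to 34.6 CPM in AV and 1.14 to 3.28 in HS cells and was high in Young A.

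Cenpf was the 1 member called lower in AV than in HS cells, and the only core gene tested in that pair. Its level was 16.4, 17, 10.1, 17.1, 9.25, 2.72 and 3.55 CPM in HS cells and 12.7, 5.4, 0.413, 3.29, 0.797, 1.64 and 0.806 in AV cells, higher in HS cells in all 7 mice (AV over HS -1.80 ± 0.41, adjusted p = 0.002). It had UMIs in 93 of 2138 HS cells (4.35%; 1.87% after thinning), against 48 of 4820 AV cells (0.996%; 0.311%) and 14 of 1993 fibroblasts (0.702%; 0.251%). The HS median depth was 7382, 7068 and 6848 UMIs in G1-, S- and G2M-labelled cells, the AV one 6889, 6589 and 6102, and the fibroblast one 4479, 4304 and 4222. Of the 93 cells, 79 (84.9%) held no other core gene and 52 were labelled G1. The UMIs were not spread 1 to a cell, since 17 cells held 3 or more, with a highest count of 18, and 14 of those 17 held no other core gene. Mki67 had a similar spread without the depth per cell, in 68 HS cells (3.18%; 0.889% after thinning), 61 of them with no other core gene, at 1.04 UMIs per positive cell. In AV cells it was found in 52 of 4820. Core genes were not all alike, and Top2a was found in 13 HS and 87 AV cells. The level of Mki67 was 0 to 9.84 CPM in HS and 0.987 to 2.31 in AV cells, and no test of it was made in this pair, since it was below the minimum count. Mad2l1, a checkpoint gene off the phase lists, was likewise higher in HS than in AV cells (-2.33 ± 0.33, adjusted p = 4.7e-05) and than in myoepithelial cells (2.98). It had 343 UMIs in 203 HS cells, 35 with 3 or more UMIs, and 30 of the 35 held no core gene. Cenpf and Mad2l1 were singled out after their values were seen.

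Of the other lists, 7 of 9 further S genes were higher in AV than in HS cells, led by Gmnn (2.38), Cdca7 (2.24) and Nasp (2.10), as were 7 of 12 proliferation genes, led by Stmn1 (2.77) and Cdt1 (2.69), with Mad2l1 the 1 lower. Of 10 further G2M genes Lbr (1.43) and Tmpo (1.11) were higher and Rangap1 (-0.73) lower, and 5 of 13 control genes were higher, Cdk6 (3.57) and Rb1 (2.79) among them. Against myoepithelial cells, HS cells were lower in 8 and higher in 1 of 11 proliferation genes (Stmn1 -3.20, Mad2l1 2.98, Dek -1.80), lower in 2 of 4 further S genes (Nasp -3.04, Usp1 -1.04), and split over the further G2M genes (2 higher and 2 lower of 8, with Lbr -2.16, Hjurp 1.13 and Anp32e -1.08) and the control genes (3 and 3 of 10, with Cdkn1c -2.39 and Ccnd1 1.99). AV against myoepithelial cells was mixed, with 3 higher and 2 lower of 9 further S genes (Gmnn 1.98 and Prim1 1.29 among them), 2 and 3 of 9 further G2M genes (Rangap1 -1.28, Hjurp 1.00, Lbr -0.99), 1 and 5 of 11 proliferation genes (Ran -1.25, Lig1 1.17, H2afz -1.12) and 5 and 3 of 14 control genes, with Ccnd2 (-4.47) and Ccnd1 (2.46) on opposite sides.

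**Figure D5:**
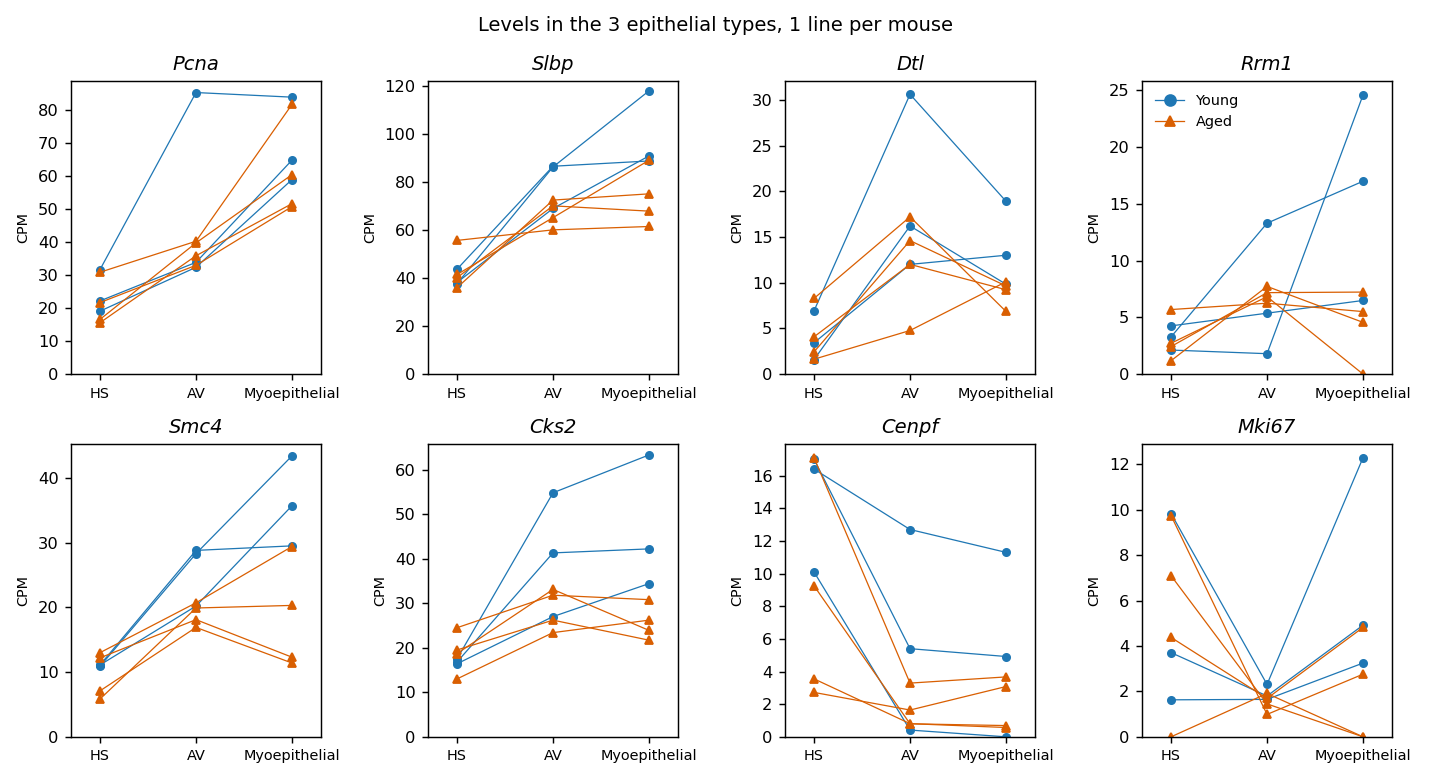
Each line joins 1 mouse's CPM in HS, AV and myoepithelial cells (blue Young, n = 3; orange Aged, n = 4), with its own y axis per gene. Pcna, Slbp, Smc4, Cks2 and Dtl are lower in HS than in AV cells in every mouse, Rrm1 in 6 of 7, and Cenpf is higher in HS than in AV cells in every mouse.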

How the data were processed

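Mammary cells of 7 mice were profiled with the 10x Chromium 3′ kit (v2). The UMI counts were made by the authors with Cell Ranger 2.0 on mm10 and deposited for 13684 cells and 27998 genes after their filter on genes per cell. The deposited cell types were used as given, as were the Phase labels, which the authors derived from S and G2M scores, and the deposited mitochondrial fraction of each cell served the authors' filter. Calling phases again with Seurat 5.3.0 gave the same phase for 89.8% of cells with the original default lists (42 S and 54 G2M genes found) and for 77.7% with the updated ones. No column belonged to another series (0). The members and lists were chosen with earlier results of these data known.

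Sums of counts over the cells of 1 type in 1 mouse (at least 3 cells) were tested in R 4.3.3 with edgeR 4.0.16 (quasi-likelihood test, TMM, filterByExpr, Benjamini-Hochberg over all genes tested, called at adjusted p under 0.05 and 1.5-fold), after the procedure was tested on simulated data. Direction is Aged over Young. DESeq2 1.42.0 was an alternative. The p-values measure the spread between these mice, each of which is 1 library. Pairs of types and phases had the mouse as a block. Phase shares were compared by exact two-sided permutation (enumerated directly in Python 3.11.15), over 35 divisions of the mice between ages and 128 sign flips between types, adjusted over 18 shares. Mcm3, Ccnb1 and Ccna2 did not pass the minimum count in the phase sums, so their fits used no minimum, a change made after the counts were seen. Doublets were called per mouse with Scrublet in scanpy 1.11.5 (expected rate 0.06), which marked 73 cells (0.533%), and they were kept except in an alternative. Shared barcodes were kept (3 of the 202 cells had 3 or more core genes). Limits for a share of 0 use 3 counts. Intervals are at 95% (Wilson, scipy 1.17.1). CPM values are UMIs of a gene per 1000000 UMIs of the type in that mouse.

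Named genes were every member called, 22 set members in the levels, the 3 tested members with the lowest adjusted p in each age fit, and of each other list up to 3 called genes with the largest change, of which some are not reported here. Promoters shown were those of members with the highest counts that hold an E2F word (3 of the S list) or CHR (3 of the core and 2 outside it). Alternatives were DESeq2, no minimum count, no minimum fold, the letters A to C as a replicate block or no mouse block, no doublets, each mouse left out, and, added after seeing the data, sums without cells holding 3 or more core genes. For shares they were phases called again, thinned cells and cuts of 2 and 4 genes.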

Additional observations from a re-analysis of the deposited data

Results flagged for a closer look

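Of 34 sets of values examined by Dixon's test, by which chance marks about 1 set in 20, 2 held a value far from the others. The sets were shares or levels in the 4 Aged mice and differences in label share between types over all 7 mice. The G2M-labelled share of AV cells in Aged D was 6.54%, against 10.7, 11.2 and 10.5% in Aged A, B and C. The share of myoepithelial cells with 3 or more core genes in Aged B was 0.151%, which is 1 cell of 662, against 0 in the other Aged mice. A lone value beside values of 0 is always marked by this test.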

How the results depend on the processing

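All counts here are of members called, against 6 in myoepithelial, 0 in HS, 1 in AV and 5 in vascular cells by age, and 10 (AV against HS), 3 (AV against myoepithelial) and 5 (HS against myoepithelial) between types. The cause of these changes was not tested. DESeq2 called 1 in myoepithelial, 1 in HS and 6 in AV cells. With no minimum count, and so more members tested, it was 26 in myoepithelial, 1 in HS, 5 in AV, 15 in vascular cells, 1 in pericytes, 21 in AV against HS, 8 in AV against myoepithelial and 21 in HS against myoepithelial. Without called doublets AV had 0, without cells holding 3 or more core genes myoepithelial and vascular cells had 2 each, and for AV against myoepithelial no minimum fold gave 5 and no mouse block 0. The letters of the mice do not pair them (correlations of same-letter deviations ran from -0.17 to 0.37), and as a replicate block they gave 2 in myoepithelial and 0 in AV cells.

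Leaving out each mouse gave 1 to 11 in myoepithelial cells (1 without Young A, 11 without Young B), 0 to 1 in HS, 0 to 4 in AV and 4 to 6 in vascular cells, 8 to 11, 1 to 5 and 5 to 8 between types, and -0.06 to 0.51 for Mcm3 in G2M over G1 (-0.06 without Young A). Of the 30 called pairs of member and comparison, followed through 388 values, 341 stayed called and 47 did not, with 0 reversed. Without Young A 21 of the 30 stayed called.

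For label shares (percentage points, Aged minus Young or the type named earlier minus the later), directions reversed in HS S plus G2M after thinning (3.51), in HS S with phases called again (-0.221), in HS G2M after thinning (0.231), in AV S with phases called again (2.63) or thinned (0.803), in the G2M share of AV against HS with phases called again (-3.52), in AV against myoepithelial S with phases called again (0.75) and G2M after thinning (1.21), and in HS against myoepithelial G2M after thinning (1.17). Leaving out each mouse, HS S ran from -1.45 to 5.03, AV S from -7.05 to 9.84 and AV against myoepithelial S from -3.05 to 1.42. None of these shares passed its test. Mcm3 in G2M over G1 was -0.49 in HS cells in place of 0.24 in AV cells. The HS share with 3 or more core genes differed by -0.484 points at a cut of 2 genes and -0.0386 after thinning, in place of -0.235. No core gene passed the minimum count for the age test in myoepithelial cells.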
